A study of Mus musculus with 4 samples.

Results

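Receptors for serotonin, noradrenaline and adrenaline, acetylcholine (the muscarinic type) and dopamine were examined in RNA from motor neurons of the mouse spinal cord. The receptors were taken by gene symbol, as every row of the expression tables that begins with Htr, Adra, Adrb or Drd and a number or is named Chrm1 to Chrm5. Of the 27189 genes in each table, 34 matched. They comprise 14 serotonin, 9 adrenergic, 5 muscarinic and 5 dopamine receptor genes, 33 receptors in all, and Drd1ip (named Caly in the annotation), which codes for calcyon, a vesicle protein that is not itself a receptor.

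RNA-seq was carried out on 4 libraries, each from the laser-dissected cell bodies of 1 mouse at 3 months of age on a mixed C57BL/6J x SJL/J background, with 3000 to 4000 large ventral horn cell bodies taken per animal. Both groups are transgenic: 2 libraries are from strain 592, which carries human wild-type SOD1 fused to yellow fluorescent protein (wild-type SOD1-YFP), and 2 are from strain 737, which carries the same fusion with the G85R mutation that causes amyotrophic lateral sclerosis. The transgenes are genomic fragments of human SOD1, so that expression is not limited to motor neurons. The G85R strain has many more copies of its transgene, and genotype, insertion and copy number therefore cannot be told apart. There was no nontransgenic group. Cells with large aggregates, which stained darkly, were not collected from the G85R animals, so that the comparison is between cells without such aggregates.

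Motor neurons receive serotonin from the raphe nuclei, noradrenaline from the brainstem, and acetylcholine from spinal interneurons whose large endings on the cell body are known as C-boutons. All but 2 of the receptors act through a G protein. Receptors coupled to Gq (Htr2, Adra1 and Chrm1, Chrm3 and Chrm5) activate phospholipase C and generally raise the excitability of the cell, those coupled to Gi (Htr1, Htr5, Adra2, Chrm2, Chrm4 and Drd2, Drd3 and Drd4) lower cyclic AMP and open inwardly rectifying potassium channels, and those coupled to Gs (Htr4, Htr6, Htr7, Adrb and the D1 and D5 dopamine receptors) raise cyclic AMP. Htr3a and Htr3b code instead for subunits of a serotonin-gated ion channel.

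The G protein-coupled members are marked by a triplet of residues, aspartate, arginine and tyrosine, at the inner end of the third transmembrane segment, where the receptor meets its G protein. To show what the receptors share in sequence, the coding sequence around this triplet is given for the 8 most abundant of them and for 2 dopamine receptors, with the codons of the triplet in capitals:
Chrm2: atcagctttGATAGATACttctgtgtc
Adra1d: atctctgtgGACCGGTACgtgggtgtg
Htr7: atcagcatcGACAGGTACcttgggatc
Htr2c: atatcgctgGACCGGTATgtagcaata
Adra2a: atcagccttGACCGCTACtggtccatc
Adra2c: attagtctgGACCGCTACtggtcggtg
Htr2a: atctccctgGACCGCTACgtggctatc
Adra1b: atctccattGACCGCTACattggggtg
Drd2: atcagcatcGACAGGTACacagctgtg
Drd5: atcagcgtgGACCGGTACtgggctatt

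In frame, from codon 90 to codon 260, the first codon for aspartate or glutamate followed by one for arginine and one for tyrosine or phenylalanine was sought, and there was more than 1 match in 2 receptors, Adra1d and Htr2b. The triplet was found in all 31 G protein-coupled receptors, in 30 of them with a tyrosine codon at its end. Drd4 has GACAGGTTC, which ends in a phenylalanine codon. The triplet had 15 spellings among the 31 receptors, and GACCGCTAC was the most frequent, with 9 receptors. On the mm9 assembly (NCBIM37) these stretches are in coding exons of Chrm2 at chr6:36473558-36473584, Htr2c at chrX:143604205-143604231, Adra2a at chr19:54121128-54121154, Adra2c at chr5:35622967-35622993, Htr2a at chr14:75044887-75044913 and Drd5 at chr5:38711298-38711324, all on the plus strand. Those of Adra1d at chr2:131387329-131387355 and Adra1b at chr11:43649150-43649176 are on the minus strand. The stretches of Htr7 (chromosome 19) and Drd2 (chromosome 9) run across an exon junction. Over the family, 16 of the 33 receptors have their whole coding sequence in 1 exon, as have 5 of the 15 most abundant.

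Expression is given as RPKM, the reads on a gene per kilobase of its length, scaled to the mapped reads of the library. An order of genes by RPKM therefore depends on the length used for each. By estimated reads in wild-type replicate 1, Htr2c had 1644 and Chrm2 810, whereas Chrm2 was the higher by RPKM. The RPKM of a single read had a median over genes of 0.0195 to 0.0226 in the 4 libraries, and the estimated reads on genes were 21560318 to 25186594 per library. All 10 motor neuron markers had a mean RPKM of at least 1. For example, Chat, for the enzyme that makes acetylcholine, had 66.3 and 81.2 in wild-type against 49.6 and 65.5 in G85R. Markers of other cell types were also present, and their sums over each list were 902 to 1300 for astrocytes, 851 to 1109 for oligodendrocytes, 608 to 780 for other neurons and 17.3 to 39.5 for microglia. Aldoc (443 to 671) and S100b (412 to 498) made up most of the astrocyte sum, and Calb2 (404 to 588) most of the other neuron sum. The highest astrocyte and microglia sums were both in G85R replicate 1. A value of 0 in these tables does not by itself show that a gene is silent, since both rows of Gapdh, a gene that all cells use, were listed at 0 to 0.111.

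Receptor RNA was dominated by a small number of genes. Of the 33 receptors, 15 averaged at least 1 RPKM, 12 had a lower mean but were above 0 in all 4 libraries, 3 were above 0 in some libraries only, and 3 were listed at 0 in all. Receptors above 0 in all libraries thus numbered 27 (81.8%), compared with 58.7% of all genes, while the share with a mean of at least 1 was 45.5%, close to the 42.4% of all genes. The summed RPKM of the 33 receptors was 126 and 147 in wild-type compared with 116 and 123 in G85R. The 8 receptors with the highest means, Chrm2, Adra1d, Htr7, Htr2c, Adra2a, Adra2c, Htr2a and Adra1b, made up 84.7% to 85.8% of that sum in each library. They include Gq-, Gi- and Gs-coupled receptors for 3 of the 4 transmitter families, and no dopamine receptor.

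**Figure D1:**
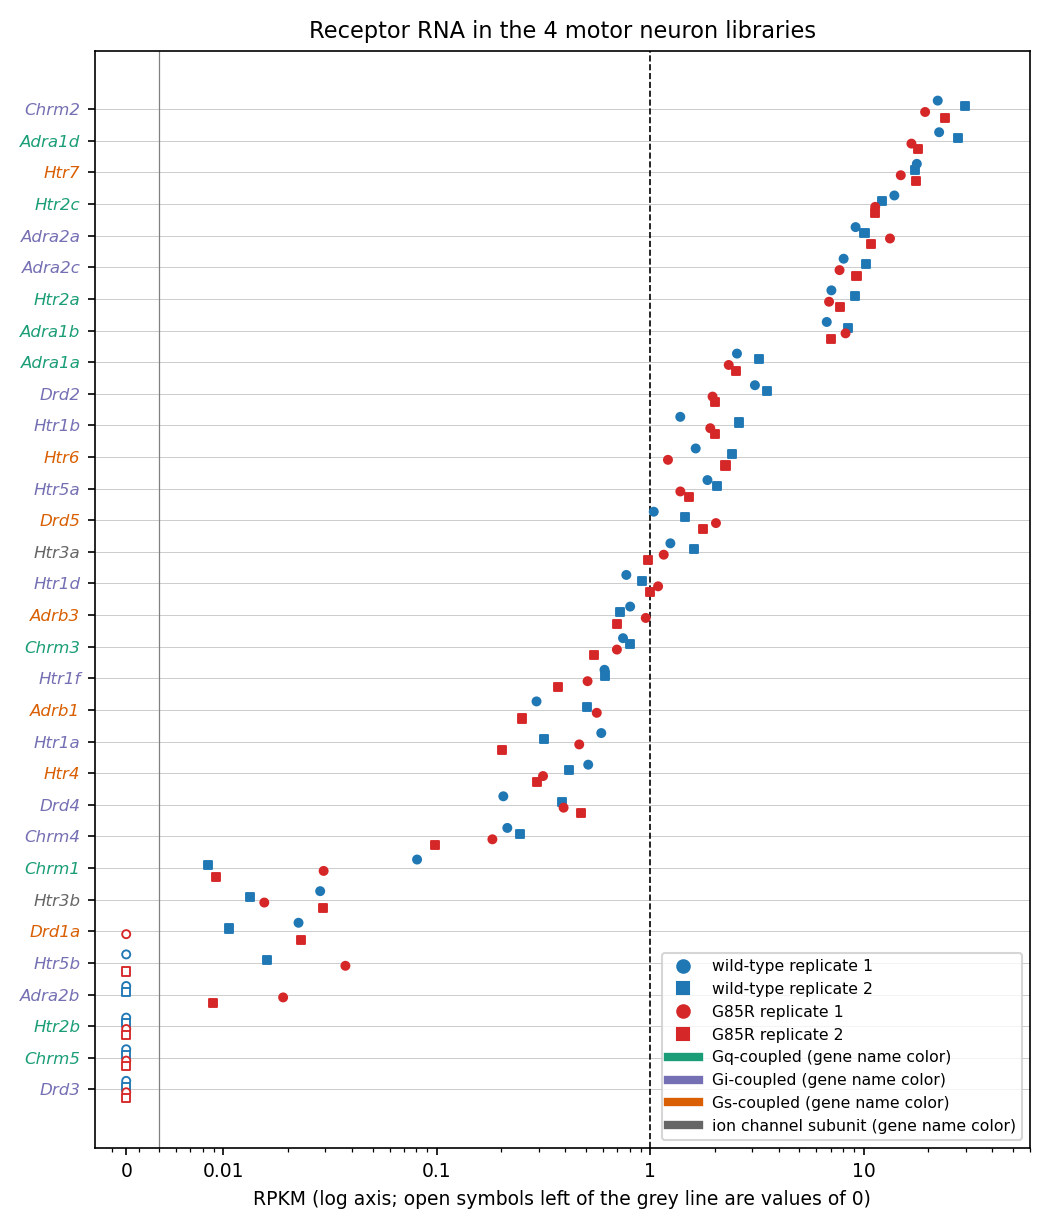
RPKM of 32 of the 33 receptors (rows, ordered by mean) in the 4 libraries, on a log axis, with wild-type in blue, G85R in red and values of 0 as open symbols at the left. From Chrm2 at 19.4 to 29.9 the levels descend to 3 receptors listed at 0 in all 4 libraries. The dashed line is at 1 RPKM, and the 15 receptors whose mean reached it were tested. Single values of Htr3a (tested) and Htr1d (not tested) lie on both sides of it.

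The plot of receptor levels shows the order from the highest mean to the lowest, and also how little neighbors in that order differ. Among the 15 receptors with a mean of at least 1, the values over the 4 libraries separated at 2 steps of the order only, between Htr7 and Htr2c and between Adra1b and Adra1a. Chrm2 exceeded Adra1d in 3 of the 4 libraries, and Adra1d exceeded Htr7 in 4 of 4, although their ranges overlapped. From Drd2 down to Htr3a, no step of the order separated the libraries. By mean RPKM, Chrm2 stood above 88.1% of all genes, Htr7 above 84.5%, and Htr3a, the lowest of the 15, above 59.1%.

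The most abundant Gq-coupled receptor was Adra1d, the alpha-1D adrenergic receptor (chromosome 2, 131371586 to 131388021, minus strand). Its RPKM was 22.6 and 27.5 in wild-type replicates 1 and 2 and 16.7 and 18.0 in G85R replicates 1 and 2, from an estimated 1580, 2048, 1070 and 1224 reads. Both G85R libraries were below both wild-type libraries. Of the other alpha-1 receptors, Adra1b (chromosome 11, 43588108 to 43714712, minus strand) had 6.71 and 8.44 in wild-type versus 8.22 and 7.06 in G85R, with overlapping groups, and Adra1a (chromosome 14, 67254088 to 67390005, plus strand) had 2.55 and 3.23 in wild-type against 2.33 and 2.51 in G85R. All 3 genes for alpha-1 receptors were thus expressed, with the alpha-1D gene highest in each library.

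Htr2c and Htr2a code for the Gq-coupled serotonin receptors 5-HT2C and 5-HT2A, through which serotonin increases motor neuron firing. Htr2c (chromosome X, 143397056 to 143631820, plus strand) had 13.9 and 12.2 in wild-type compared with 11.3 and 11.3 in G85R. Both G85R values lay just below the lower wild-type value. Htr2a (chromosome 14, 75040647 to 75106666, plus strand) had 7.06 and 9.13 in wild-type versus 6.88 and 7.76 in G85R, and the groups overlapped. Htr2b, the remaining member of this subfamily, was listed at 0 in all 4 libraries. The Gq-coupled muscarinic receptors were low: Chrm3 had 0.745 and 0.803 in wild-type against 0.697 and 0.545 in G85R, Chrm1 was at 0.00844 to 0.0807, which is 9.1 estimated reads in wild-type replicate 1 and 1 to 3 in the others, and Chrm5 was listed at 0 throughout.

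Among the Gi-coupled receptors, Chrm2 had the highest RPKM of all 33. It codes for the M2 muscarinic receptor, which lies opposite C-boutons on the motor neuron cell body (chromosome 6, 36338084 to 36478414, plus strand). Chrm2 had 22.2 and 29.9 in wild-type compared with 19.4 and 24.0 in G85R, so that the groups overlapped, and it made up 95.5% to 97.4% of the summed RPKM of the muscarinic receptors in each library. Chrm4, the other Gi-coupled muscarinic receptor, had 0.214 and 0.246 in wild-type versus 0.182 and 0.0979 in G85R, from 9, 11, 7 and 4 reads.

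Of the alpha-2 adrenergic receptors, Adra2a (chromosome 19, 54119672 to 54123472, plus strand) had 9.16 and 10.1 in wild-type against 13.3 and 10.8 in G85R, with both G85R libraries above both wild-type libraries. Adra2c (chromosome 5, 35621215 to 35624410, plus strand) overlapped, with 8.05 and 10.2 in wild-type compared with 7.71 and 9.25 in G85R. Adra2b had no listed RNA in wild-type, with 0 in each library, and 0.0190 and 0.00896 in G85R, which is 2 reads and 1 read. The 2 expressed alpha-2 genes were therefore at similar levels, Adra2a above Adra2c in 3 of the 4 libraries, with Adra2b near the limit of detection.

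The Gi-coupled serotonin receptors, of the 5-HT1 and 5-HT5 types, were much lower than Htr7, Htr2c or Htr2a. Htr1b had 1.38 and 2.59 in wild-type versus 1.91 and 2.01 in G85R, so that the wild-type libraries lay on either side of the G85R libraries. Htr5a had 1.85 and 2.06 in wild-type against 1.38 and 1.52 in G85R, from 302, 356, 206 and 240 reads, with both G85R libraries lower. Htr1d was close to 1 RPKM, with 0.772 and 0.914 in wild-type compared with 1.09 and 0.996 in G85R. Htr1f had 0.610 and 0.612 in wild-type versus 0.508 and 0.369 in G85R. Htr1a, the somatodendritic autoreceptor of raphe neurons, ranged from 0.202 to 0.589 with overlapping groups. Htr5b was above 0 in 2 libraries, with 1 read in wild-type replicate 2 and 2 reads in G85R replicate 1.

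Drd2, the Gi-coupled D2 dopamine receptor (chromosome 9, 49148732 to 49216282, plus strand), had 3.09 and 3.51 in wild-type against 1.96 and 2.00 in G85R. These values rest on 140 and 169 reads in wild-type and 81 and 88 reads in G85R, and the G85R libraries were both lower. Drd4 had 0.205 and 0.386 in wild-type compared with 0.392 and 0.475 in G85R from 8 to 18 reads, and Drd3 was listed at 0 in all libraries. Dopamine receptors contributed the least RNA of the 4 transmitter families, with a summed RPKM of 4.36 and 5.37 in wild-type versus 4.38 and 4.26 in G85R.

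Of the Gs-coupled receptors, Htr7 (chromosome 19, 36033224 to 36131997, minus strand) made up 72.9% to 78.9% of the summed RPKM. Its values were 17.7 and 17.4 in wild-type against 14.9 and 17.6 in G85R, the lowest being G85R replicate 1. Htr6 varied within both groups, with 1.63 and 2.41 in wild-type compared with 1.21 and 2.25 in G85R. Drd5, the D5 dopamine receptor (chromosome 5, 38710748 to 38713549, plus strand), had 1.04 and 1.46 in wild-type versus 2.03 and 1.76 in G85R, from 85, 127, 152 and 140 reads, and both G85R libraries were higher. The D1 receptor gene, which the tables name Drd1a, had at most 2 reads in a library and was listed at 0 in G85R replicate 1.

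Adrb3 and Adrb1 code for beta-adrenergic receptors, which couple to Gs, and were below 1 RPKM on average, whereas 5 of the 6 alpha-adrenergic receptors averaged more. Adrb3 had 0.805 and 0.721 in wild-type against 0.952 and 0.701 in G85R, and Adrb1 ranged from 0.252 to 0.561, with overlapping groups in both genes. Htr4 had 0.512 and 0.415 in wild-type compared with 0.314 and 0.296 in G85R. The ion channel subunit Htr3a had 1.24 and 1.61 in wild-type versus 1.16 and 0.973 in G85R, both G85R libraries being lower, while its partner Htr3b had 1 or 2 reads in each library.

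To ask whether receptor RNA differed between wild-type and G85R motor neurons before symptoms, the genotypes were compared with limma over the 11530 genes that averaged at least 1 RPKM. None of the 15 receptors tested passed an adjusted p of 0.05 (limma), compared with 0.642% of all tested genes (0.269% higher and 0.373% lower in G85R). The lowest adjusted p among the receptors was 0.170, for Drd2. At an unadjusted p under 0.05 there were 3 receptors, Drd2 and Adra1d with lower and Drd5 with higher RNA in G85R, against 11.0% of all tested genes (4.66% higher and 6.37% lower). The log-linear likelihood ratio test of the study's methods gave 0 receptors at that level, against 1.29% of all genes, and 0 after adjustment, against 0.228%. It took rounded RPKM as counts, so that receptors of a few RPKM could hardly reach that level. Nothing is concluded from these counts of 0. The fitted change was below 0 for 11 of the 15 receptors (54.7% of all tested genes), and the median log2 fold change was -0.20, against -0.02 over all tested genes. With 2 animals per genotype, the exact permutation p for any 1 receptor is at least 0.333.

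**Figure D2:**
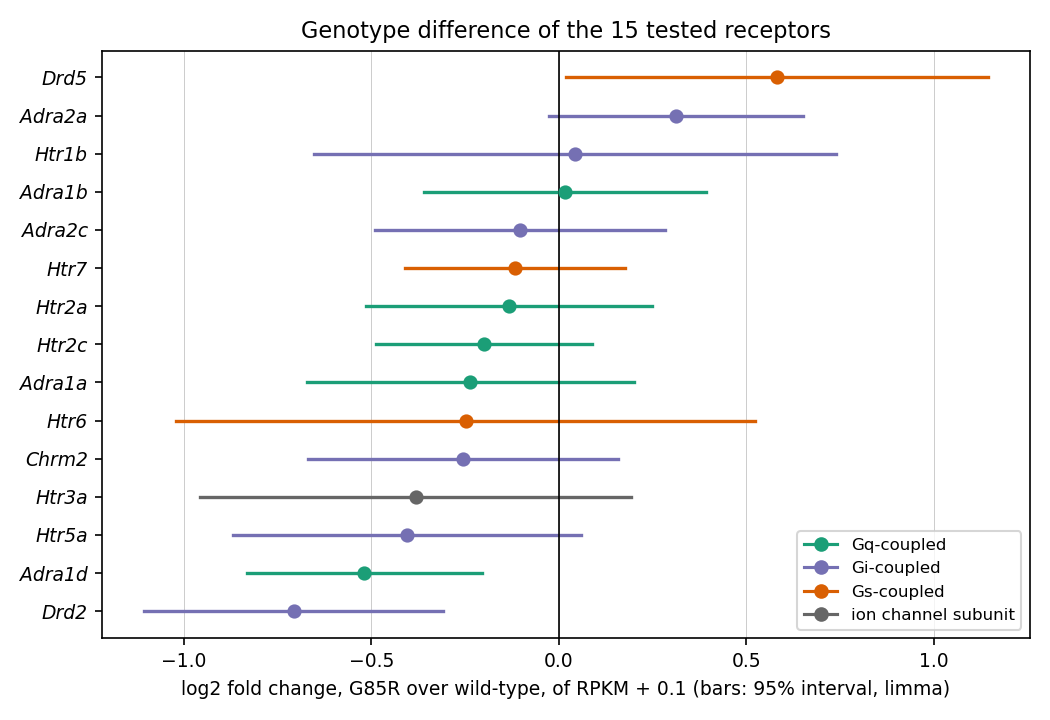
Log2 fold change (G85R over wild-type) of RPKM + 0.1 for the 15 tested receptors, with 95% intervals from limma as bars and the signalling class as color. Drd2 and Adra1d lie lowest and Drd5 highest, and the intervals of these 3 genes exclude 0 before adjustment.

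On the log2 scale Drd2 differed by -0.71 (standard error 0.17, limma adjusted p = 0.170), a 1.63-fold lower level in G85R with an interval of -1.10 to -0.31 on the log2 scale. For Adra1d it was -0.52 (standard error 0.13, adjusted p = 0.196 from limma), 1.43-fold lower with an interval of -0.83 to -0.21. Drd5 had 0.58 (standard error 0.24, adjusted p = 0.438 from limma), 1.50-fold higher with an interval of 0.02 to 1.14. The value of Drd5 was 0.35 without wild-type replicate 1, 0.81 without wild-type replicate 2 and 0.37 with a pseudocount of 1. Leaving out G85R replicate 1 gave log2 fold changes of -0.69 for Drd2, -0.47 for Adra1d and 0.48 for Drd5. The 2 dopamine receptors above 1 RPKM thus lay at opposite ends of the plot of fold changes. Drd2 made up 71.0% and 65.4% of the summed dopamine receptor RPKM in wild-type and 44.7% and 47.0% in G85R, whereas the sums themselves overlapped. Adra1d made up 44.6% and 44.8% of adrenergic receptor RPKM in wild-type and 33.3% and 36.8% in G85R. These shares are descriptions, and no test was made of them.

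For the other abundant receptors the intervals show which changes these libraries leave possible. Chrm2 had a log2 fold change of -0.26 with an interval of -0.67 to 0.16 (adjusted p = 0.683 from limma), Htr7 of -0.12 with an interval of -0.41 to 0.18 (adjusted p = 0.824), and Htr2c of -0.20 with an interval of -0.49 to 0.09 (adjusted p = 0.630). That of Adra2a was 0.31, with an interval of -0.03 to 0.65 (adjusted p = 0.494), and without G85R replicate 1 it was 0.16. Htr2a, Adra2c and Adra1b had log2 fold changes of -0.13, -0.10 and 0.02 (standard error 0.16 in each), and Adra1a of -0.24. Htr5a had -0.41 with an interval of -0.87 to 0.06, and Htr3a -0.38 with an interval of -0.96 to 0.19. Htr1b and Htr6, with log2 fold changes of 0.04 and -0.25, had the widest intervals, with standard errors of 0.29 and 0.33. Several of these values rested on 1 library. That of Chrm2 was -0.47 and -0.04 without wild-type replicates 1 and 2, and -0.10 and -0.41 without G85R replicates 1 and 2. That of Adra1a was -0.40 and -0.07 without wild-type replicates 1 and 2, that of Htr2c was -0.10 without wild-type replicate 1, and that of Htr3a was -0.21 without wild-type replicate 2. With a pseudocount of 1, Htr3a had -0.23 and Htr5a -0.27.

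Both G85R values lay outside both wild-type values in 8 of the 15 tested receptors, 2 above (Adra2a and Drd5) and 6 below (Adra1d, Htr2c, Adra1a, Drd2, Htr5a and Htr3a). The share over all tested genes was 41.2%, with 17.3% above and 23.9% below. Of the 12 receptors with a lower mean that were above 0 in all libraries, 6 had no overlap, with Htr1d and Drd4 above and Chrm3, Htr1f, Htr4 and Chrm4 below, against 40.2% of all genes of that kind. When genes of any level were fitted, 3 receptors again had an unadjusted p under 0.05 (7.21% of all genes), namely Adra1d, Drd2 and Adra2b, the last on 2 reads and 1 read, and 0 had an adjusted one. Drd1ip was much higher than any receptor, with 85.6 and 94.7 in wild-type against 101 and 104 in G85R, and differed by 0.19 on the log2 scale (standard error 0.10, adjusted p = 0.570 from limma).

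**Figure D3:**
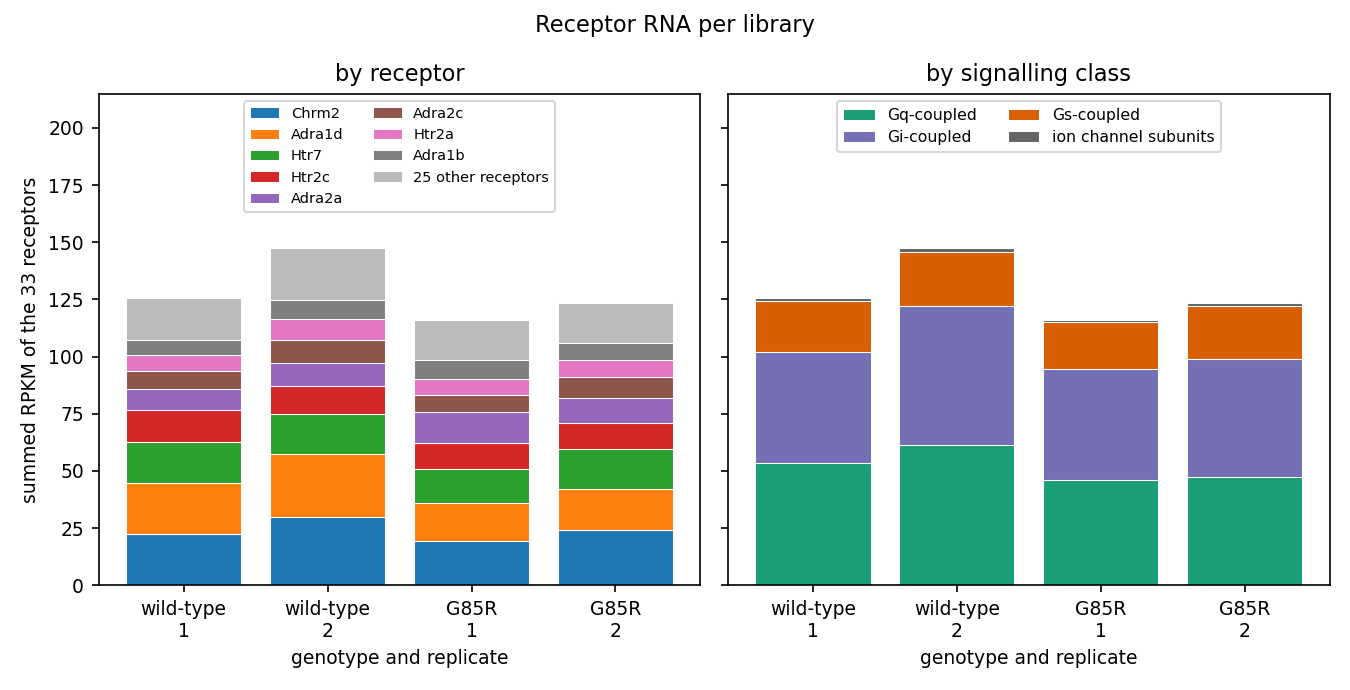
Summed RPKM of the 33 receptors in each of the 4 libraries, divided by receptor on the left and by signalling class on the right. The bars reach 126 and 147 in wild-type compared with 116 and 123 in G85R, and Gq-coupled receptors account for 53.6 and 61.3 in wild-type versus 46.2 and 47.2 in G85R.

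By transmitter, serotonin receptors summed to 47.3 and 49.7 in wild-type against 41.2 and 45.3 in G85R, with both G85R libraries lower. Adrenergic receptors summed to 50.6 and 61.4 in wild-type compared with 50.3 and 49.0 in G85R, with G85R replicate 1 just below wild-type replicate 1. Muscarinic receptors summed to 23.3 and 31.0 in wild-type versus 20.3 and 24.6 in G85R and overlapped. By signalling class, the Gq-coupled sum was lower in both G85R libraries, as shown in the bars by library. It averaged 57.5 in wild-type and 46.7 in G85R. Most of that difference came from Adra1d, which averaged 25.1 and 17.4. Of the 5 tested Gq-coupled receptors, 4 had a log2 fold change below 0, against 54.7% of all tested genes. The Gi-coupled sum was 48.2 and 60.9 in wild-type versus 48.3 and 51.7 in G85R and overlapped, as did the Gs-coupled sum, with 22.5 and 23.6 in wild-type against 20.5 and 23.3 in G85R. In bulk RNA of this kind, fewer cells of a type and less RNA per cell cannot be told apart.

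The genes through which these receptors act were examined in the same fit. Of 12 tested genes of the Gq pathway, 1 passed the test (0.642% of all tested genes did), Gna14, which codes for an alpha subunit of the Gq family. Gna14 fell from 21.7 and 22.6 in wild-type to 6.70 and 9.71 in G85R, a change of -1.45 on the log2 scale (standard error 0.18, adjusted p = 0.0265 from limma). The call was lost after quantile normalization (adjusted p = 0.0613), with eBayes without trend (0.0675) and with no minimum RPKM (0.474), and held when any library was left out. The most abundant genes of this list were not called: Prkcb1, a protein kinase C, had 48.9 and 47.4 in wild-type compared with 41.8 and 40.5 in G85R, Plcb4, a phospholipase C, had 33.4 and 28.8 in wild-type versus 22.9 and 21.7 in G85R, and Gna11, another alpha subunit of the family, had 20.7 and 23.2 in wild-type against 28.7 and 27.9 in G85R. In all, 5 genes of this list had an unadjusted p under 0.05, 3 of them lower in G85R, where the share over all tested genes was 11.0%. The list had a median log2 fold change of -0.22.

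In the other signalling lists 0 genes passed the test (limma). The Gi pathway had 7 tested genes with a median log2 fold change of -0.03, 1 of them at an unadjusted p under 0.05, and its most abundant member was Gnao1, the Go alpha subunit, with 94.2 to 101. In the Gs pathway, 15 genes had a median of -0.10 and 3 an unadjusted p under 0.05. Gnas, the Gs alpha subunit, was the highest gene of the signalling lists, with 1595 and 1815 in wild-type compared with 1993 and 2045 in G85R (log2 fold change 0.25, adjusted p = 0.424 from limma). Its log2 fold change was 0.05 after quantile normalization and 0.15 without wild-type replicate 1. Gnas had 3 rows, and all these values are of the row with the highest mean RPKM. The medians were -0.06 for 12 beta and gamma subunits (2 at an unadjusted p under 0.05), 0.10 for 6 receptor kinases and arrestins (0), 0.02 for 11 RGS proteins (2), which end G protein signals, and -0.08 for 10 channels that these receptors regulate (1), among them the pacemaker channel gene Hcn2 with 94.0 to 109. These counts are to be read against the 11.0% of all tested genes with such a p.

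Genes of the C-bouton synapse, where the M2 receptor resides, were likewise not called. Of 5 tested, counting Chrm2, 4 had a log2 fold change below 0, against 54.7% of all tested genes. Nrg1, which codes for neuregulin-1, had 60.5 and 56.8 in wild-type versus 35.9 and 46.9 in G85R (log2 fold change -0.51, adjusted p = 0.242 from limma). Without G85R replicate 1 its log2 fold change was -0.32. Oprs1, the sigma-1 receptor gene, had 117 and 114 in wild-type against 127 and 124 in G85R. The 4 tested genes for acetylcholine synthesis, transport and breakdown had a median log2 fold change of -0.11, with 0 at an unadjusted p under 0.05.

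**Figure D4:**
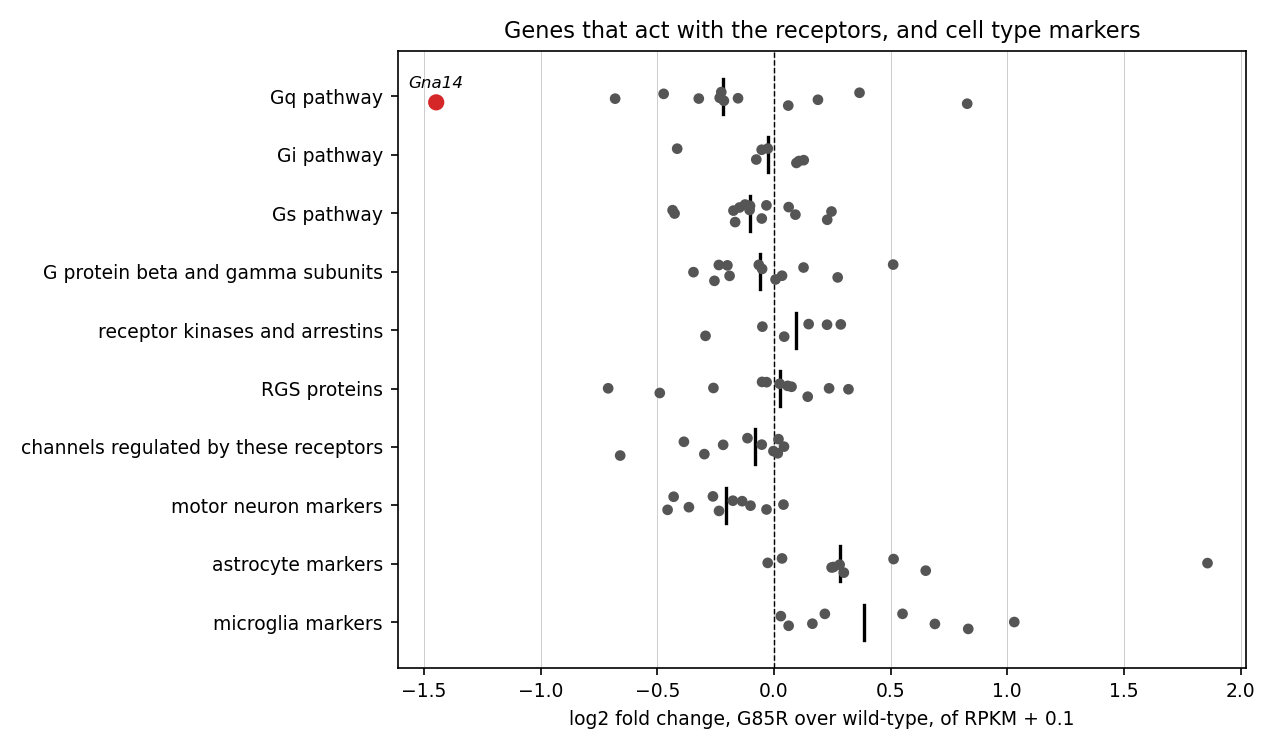
Log2 fold change (G85R over wild-type) of RPKM + 0.1 for the tested genes of lists that act with the receptors and of cell type markers, each point a gene and each black bar the median of its list. The larger red point is a called gene, Gna14 at -1.45, and the astrocyte and microglia medians lie at 0.28 and 0.39.

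Genes that make, transport or break down the monoamines were also measured. Maoa, for the monoamine oxidase that degrades serotonin and noradrenaline, had 8.67 and 7.75 in wild-type compared with 4.75 and 6.27 in G85R, with a log2 fold change of -0.58 (adjusted p = 0.262 from limma), or -0.38 without G85R replicate 1. Slc18a2, the vesicular monoamine transporter gene, was at 2.59 to 3.06 with overlapping groups. Dbh, for the enzyme that makes noradrenaline, was listed at 0 in all 4 libraries. The plot by gene list shows Gna14 apart from the other genes of its list.

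Cell type markers differed between the libraries alongside these values. Motor neuron markers summed to 6872 and 7897 in wild-type versus 6191 and 7490 in G85R, and Nefl made up most of each sum. A log2 fold change below 0 was found in 9 of 10 genes, against 54.7% of all tested genes. Their median was -0.21, close to the median of the receptors. Astrocyte markers summed to 911 and 902 in wild-type against 1300 and 998 in G85R, mostly from Aldoc and S100b. Of 9 astrocyte genes, 8 had a log2 fold change above 0, with Gjb6 at 0.03 and Aldh1l1 at -0.03. Gfap had 11.5 and 17.1 in wild-type compared with 91.9 and 28.4 in G85R. Microglia markers summed to 17.3 and 18.5 in wild-type versus 39.5 and 19.4 in G85R. Endothelial markers summed to 12.1 and 12.6 in wild-type against 10.9 and 10.1 in G85R, with both G85R libraries lower. Oligodendrocyte, mural and other neuron markers had sums of 851 to 1109, 4.48 to 5.78 and 608 to 780, with overlapping groups. In all of these lists 0 genes passed the test, with 2 motor neuron, 2 astrocyte, 2 microglia and 1 endothelial gene at an unadjusted p under 0.05 (limma), against 11.0% of all tested genes. Hemoglobin and heme genes of red blood cells summed to 1.82 and 2.10 in wild-type against 11.5 and 10.8 in G85R, with 1 gene called. The part of these markers in the receptor values was not tested.

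Exons of Chrm2, Adra1d, Htr1b and Drd5 overlap those of a gene on the other strand in the annotation (9330158H04Rik, Gm14285, D430036J16Rik and Gm16766), and among the low receptors the same holds for Chrm4, Chrm1 and Htr2b. The strand used in counting is not given in the sources used here, so that reads of the overlapping genes cannot be told apart there. This applies to the values of Adra1d and Drd5, but not to those of Drd2, which has no such overlap.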

How the data were processed

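RNA was sequenced from 4 libraries of laser-dissected motor neurons, 2 per genotype, each from a different mouse. The authors mapped reads with Bowtie 0.12.3 to mm9 and a splice junction database and quantified UCSC gene clusters with Cufflinks. The deposited values are RPKM, also given by the authors as RPKM after 1 read was added to every gene. The difference is the RPKM of 1 read, from which reads were estimated. For 18 of the 23 receptors with a single UCSC transcript the estimates were whole in all libraries (within 0.02), and for 0 of the 10 with more, so that no counting intervals were computed.

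The test between genotypes was that of limma 3.58.1 (lmFit, eBayes with trend, R 4.3.3) on log2(RPKM + 0.1), for genes averaging at least 1 RPKM, two-sided, with Benjamini-Hochberg adjustment over all tested genes and no block, a call being an adjusted p under 0.05. Fold changes on this scale understate those of low genes. The log-linear test took RPKM with 1 read added, rounded, as Poisson counts. Members of the symbol rule are named, and from each other list at most 3 of the most abundant genes and the called genes, but 2 genes that this rule would name are not reported here. Also named are Chat, Maoa, Slc18a2, Dbh and Gfap as enzymes or markers. Members and lists were chosen with earlier results of these data known. Sequences and positions are from GENCODE transcripts on NCBIM37, and 26 of 26 placed windows equaled the genome. The code of the tests was also run on simulated data, from which nothing is concluded about the receptors. Values were computed with Python 3.11.15, pandas 2.3.3 and numpy 2.4.6 and drawn with matplotlib 3.10.9. Alternatives were pseudocounts of 1 and 0.01, a minimum RPKM of 0.1, 5 or none, median-ratio and quantile scaling, eBayes without trend, a replicate block, voom on estimated reads, the log-linear test, an adjusted p under 0.1, and leaving out each library.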

Additional observations from a re-analysis of the deposited data

How the results depend on the processing

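The number of all genes called, 74, was 112 with no minimum RPKM, 17 with a minimum of 5, 40 after quantile normalization, 49 with eBayes without trend, 142 at an adjusted p under 0.1, and 78 to 188 when a library was left out, the highest without G85R replicate 2. With a replicate block it was 527, and 1 receptor was called, Adra1d (adjusted p = 0.0143 from limma). Of the signalling genes, Plcb4 and Nrg1 were called under the block as well (adjusted p = 0.0176 and 0.0249). Deviations of libraries with the same number correlated at r = 0.22 across 11530 genes, but the labels do not say what a number shares, and there are only 2 pairs. In the other alternatives 0 receptors were called. Receptors at an unadjusted p under 0.05 (limma) numbered 3, and 1 with a minimum RPKM of 5. The count was 5 with the replicate block and 0 in the log-linear test. With median-ratio rescaling, quantile normalization, eBayes without trend and voom on estimated reads it was 4 in each. The median log2 fold change of the receptors was -0.24 to -0.12, and -0.39 to -0.04 with a library left out. The adjusted p of Drd2 ranged from 0.0524 to 0.449, that of Adra1d from 0.0143 to 0.638 and that of Drd5 from 0.237 to 0.847.

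Of 203 alternatives for single receptors, 193 kept the direction and the side of the threshold. The direction turned in 9, all with a library left out, where the log2 fold change of Htr7 ranged from -0.24 to 0.0021, Adra2c from -0.27 to 0.0672, Htr2a from -0.32 to 0.0497, Adra1b from -0.15 to 0.18, Htr1b from -0.39 to 0.47 and Htr6 from -0.67 to 0.17. There the lone library of a genotype is assumed to vary like those of the other genotype. Depth limits receptors of a few reads, for which no change can be read.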
